A study of Danio rerio with 10 samples.

Results

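The microRNA gene mir-190a was measured in the livers of 10 adult male zebrafish, and it is the 1 row ENSDARG00000081636 of 272 pre-miRNA rows and 32266 rows in all. Of the 10 fish, 5 carried Tg(fabp10a-pt-beta-cat), a transgene that drives activated β-catenin from the hepatocyte promoter fabp10a (ABC), and 5 were wild-type siblings without it (WT). All fish were euthanized at 4 months of age. According to the study's methods, histology of each liver was read as hepatocellular carcinoma in ABC and as no significant abnormality in WT, so transgene and tumor cannot be told apart in this design. The transgene is expressed in hepatocytes, whereas whole liver was sequenced, so a different number of cells of a type and a different amount of RNA per cell cannot be told apart either. The gene was chosen by its measured difference between ABC and WT, the largest rise among the tested pre-miRNAs. Its levels in the 2 groups are therefore given as a description, with no test.

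A microRNA gene is transcribed as a long primary transcript, from which a hairpin, the pre-miRNA, is cut. The hairpin is then trimmed to a mature strand that guides Argonaute proteins to partly matching messenger RNAs. Reads were counted here per gene, so those of a hairpin and of its mature strand were not told apart. In mammals miR-190a is made from an intron of the talin 2 gene, which encodes a cytoskeletal adaptor of integrins, and miR-190b is its paralog at another locus. In human and mouse cells, transcripts reported as targets of the miR-190 family include PHLPP1, a phosphatase that acts on Akt, NEUROD1, a neuronal transcription factor, and IGF1, a growth factor secreted by the liver.

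Depth ranged from 1423307 to 2609547 total counts in the WT livers and from 1236439 to 2408262 in the ABC livers, with no difference of means beyond the scatter of single fish (exact permutation, two-sided, p = 0.667, n = 5 per group). Pre-miRNAs held a smaller share of the counts in ABC, 93.7% ± 0.728 (SD, n = 5), than in WT, 96.7% ± 1.17 (SD, n = 5), a difference of -3.03 percentage points with no overlap (exact permutation, two-sided, p = 0.00794). A single row, listed as mir124-1 (ENSDARG00000083634), held 69.8% ± 3.15 (SD, n = 5) of WT pre-miRNA counts and 38.6% ± 6.23 (SD, n = 5) of those in ABC. This was a difference of -31.2 percentage points (exact permutation, two-sided, p = 0.00794, the minimum for 5 against 5 fish). No row of the table is named for mir-122, which dominates the microRNAs of vertebrate liver, and the name of the row with the most counts was not checked against its sequence. Because so large a share moved, libraries were scaled by edgeR's trimmed mean of M-values (TMM), with factors between 0.662 and 0.826 in WT and between 1.04 and 1.57 in ABC.

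In the 5 WT livers, mir-190a had 3, 4, 3, 5 and 2 counts in replicates 1 to 5. In the 5 ABC livers it had 36, 275, 87, 195 and 144 counts in replicates 6 to 10. Every ABC fish lay above every WT fish, with 36 counts in the lowest ABC fish and 5 in the highest WT fish. Summed over fish, the gene had 17 counts in WT and 737 in ABC. It was thus sequenced deeply enough in ABC to compare single fish, but not in WT.

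As a share of the unscaled pre-miRNA counts, in counts per 1000000 (CPM), mir-190a was at 2.16, 2.36, 1.55, 1.97 and 1.21 CPM in WT replicates 1 to 5. In ABC replicates 6 to 10 it was at 25.6, 121, 75.5, 89.2 and 115 CPM. One count was worth between 0.393 and 0.721 CPM in WT, so the WT fish differ from each other by amounts that single counts decide. The exact 95% Poisson intervals, which cover counting error only, overlapped among all 5 WT fish. The highest upper bound in WT was 6.32 CPM, in replicate 1, and the lowest lower bound in ABC was 17.9 CPM, in replicate 6. The intervals of the 2 groups thus did not overlap, which the choice of the gene by this same difference favors. They leave out variation between fish.

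After TMM scaling, the normalized count of mir-190a was 2.68, 2.99, 1.88, 2.56 and 1.82 CPM in WT replicates 1 to 5, relative to the scaled pre-miRNA total, and CPM from here on are scaled values unless said otherwise. In ABC replicates 6 to 10 it was 20.02, 87.0, 72.7, 69.1 and 73.3 CPM. The 4 ABC fish other than replicate 6 lay close together and far above WT, and replicate 6 lay between them and WT. The means were 2.39 ± 0.514 CPM (SD, n = 5) in WT and 64.4 ± 25.7 CPM (SD, n = 5) in ABC. Relative to the WT mean, the normalized count was 8.39 times as high in ABC replicate 6 and between 29.0 and 36.4 times as high in the other 4 ABC fish.

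**Figure D1:**
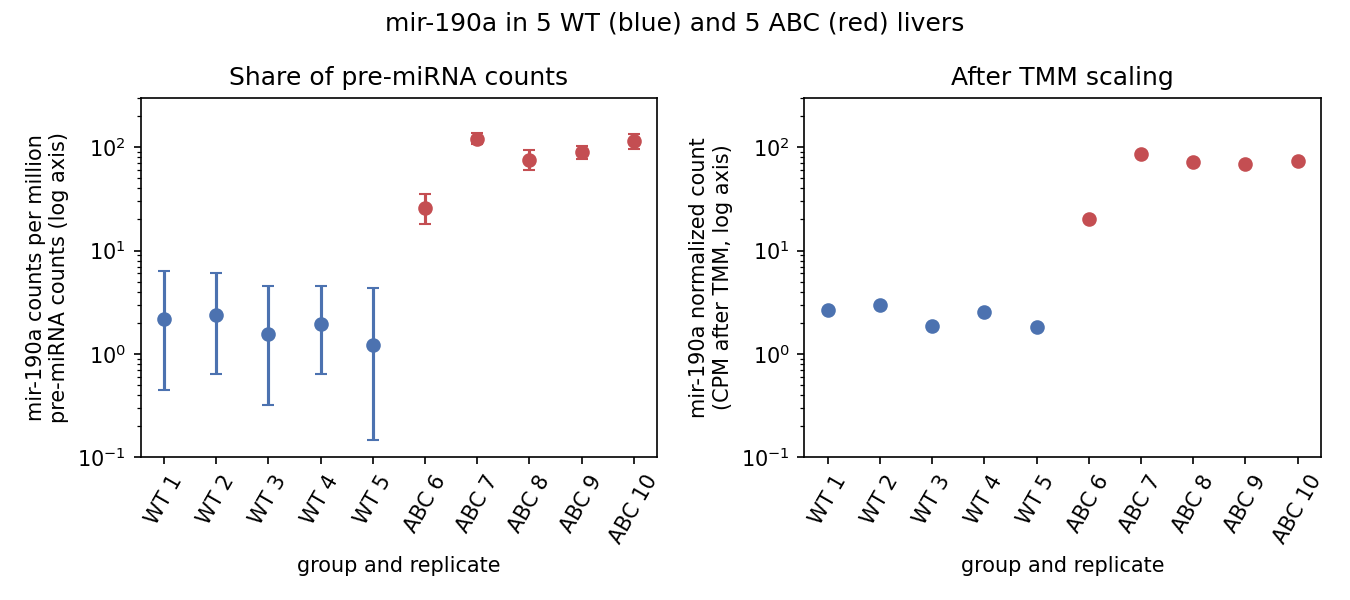
Level of mir-190a in each liver on log axes, as CPM of the unscaled pre-miRNA counts with exact 95% Poisson intervals (left) and as CPM after TMM scaling (right), with WT in blue and ABC in red. No ABC fish overlaps WT on either scale, and ABC replicate 6, at 20.02 CPM, sits below the other 4 ABC fish, at 69.1 to 87.0 CPM.

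The log2 fold-change (L2FC) of ABC against WT, from edgeR's quasi-likelihood fit over the 144 tested pre-miRNAs, was 4.71 with a standard error of 0.43, a fold of 26.2. On the unscaled share the pooled ratio was 48.3, with an exact conditional 95% interval of 30.0 to 83.4 for counting error alone. The lower value of the fitted fold follows from the scaling, since TMM factors were higher in ABC than in WT. The size of the change rests on 17 WT counts and on the scale.

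Among the ABC fish, mir-190a varied by more than counting error gives, with a chi-square per degree of freedom of 25.4 over 5 fish on the unscaled share and 7.17 over the 4 fish without replicate 6. With 2 to 5 counts per WT fish, variation between WT fish beyond counting error was not detectable at this depth. On the TMM-scaled libraries the value was 19.9 over the 5 ABC fish and 2.34 over the 4. Scaling thus brought those 4 fish, at 75.5 ± 7.85 CPM (SD, n = 4), closer to the spread that counting alone would give, though still above it. It left replicate 6 apart, and setting that fish aside here was a choice made after seeing the data.

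By rank, mir-190a stood between place 147 and 159 of the 272 pre-miRNA rows in the WT fish, in order of counts. In ABC replicates 6 to 10 it stood at places 118, 87, 91, 91 and 93. Between 176 and 190 pre-miRNAs had a count in each fish. The gene thus moved from the rarely sequenced end of the detected pre-miRNAs to their middle in ABC replicates 7 to 10. It moved less far in replicate 6, where 179 were detected. None of the other tested pre-miRNAs had a lower mean normalized count than mir-190a in WT, and 49 of the 143 others had a lower one in ABC. A row with so few WT counts passed the count filter only through its ABC counts, and so had to differ to be tested at all.

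Ratios between rows of 1 fish need no scaling. Since mir-190a was chosen for its rise in this contrast, a higher ratio to most other rows in ABC is built into the choice, and the ratios are a description. For each count of mir-190a there were between 296756 and 617342 counts of the row listed as mir124-1 in the WT fish, and between 2564 and 13614 in the ABC fish. Of the 142 other tested pre-miRNAs with counts in every fish, mir-190a was higher relative to 134 in every ABC fish than in every WT fish. The 8 exceptions were both MIR21 rows (ENSDARG00000080484 and ENSDARG00000082187), MIR489, mir-31, mir135b, mir202, mir301b and mir454b. Without ABC replicate 6, a choice made after seeing the data, 3 exceptions were left, mir-31, mir135b and mir202.

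Of the 144 tested pre-miRNAs, 62 (43.1%) were called, which required an L2FC of 0.5 or more in either direction and an adjusted p below 0.05 in edgeR's quasi-likelihood test, with 34 (23.6%) up and 28 (19.4%) down. In 26 (18.1%), every ABC fish lay above every WT fish. As mir-190a was chosen within this contrast, nothing is read from its place in these counts. The 3 pre-miRNAs next below it in L2FC were mir301b (2.82, standard error 0.75), mir-15b at ENSDARG00000081182 (2.75, standard error 0.24) and mir-222 (2.64, standard error 0.16). A separate row of that gene name, MIR15B at ENSDARG00000081366, had a smaller L2FC of 1.68 (standard error 0.23). The name mir-15b is used here for ENSDARG00000081182 only. The gap of 1.90 between mir-190a and mir301b is wider than the differences among the next 3. Unlike mir-190a, mir301b, of the miR-130/301 family, had overlapping groups. It had 5, 3, 3, 6 and 10 counts in WT and 66, 192, 9, 10 and 66 in ABC, so 2 of the 5 ABC fish were within the WT range.

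**Figure D2:**
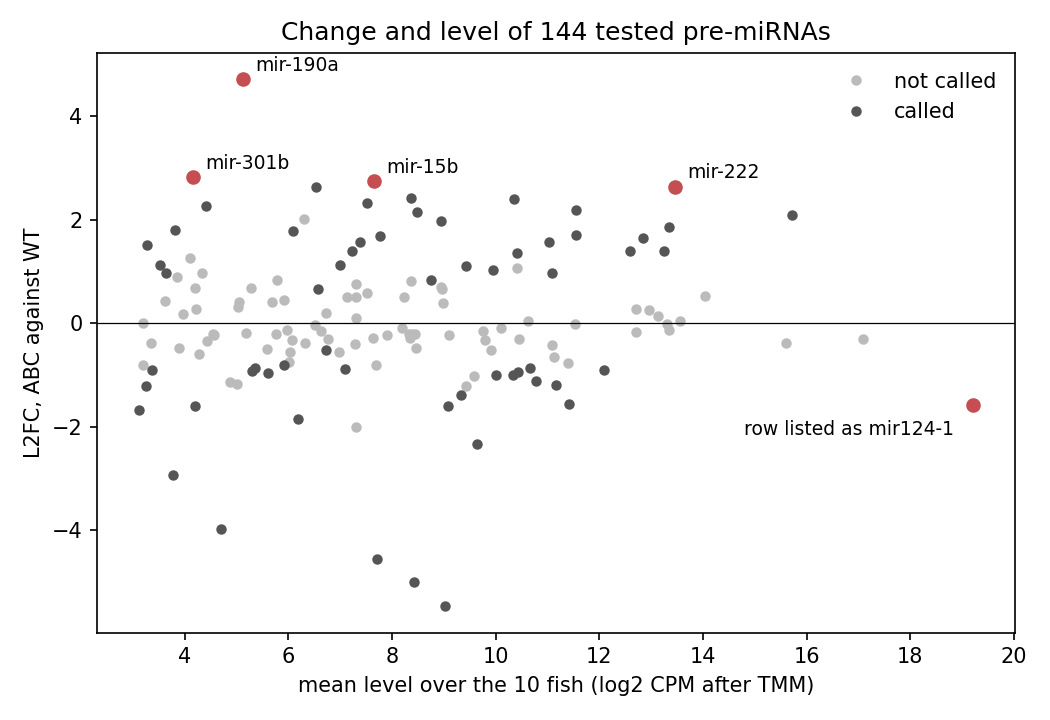
L2FC of ABC against WT (vertical axis) against the mean level over the 10 fish in log2 CPM after TMM scaling (horizontal axis) for the 144 tested pre-miRNAs, with called rows dark and 5 named rows red. The point of mir-190a, at an L2FC of 4.71, stands above mir301b, mir-15b and mir-222, at 2.82, 2.75 and 2.64, and the row listed as mir124-1 lies at the far right.

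The first place of mir-190a depended on the filter on low counts. The row mir130c-2, another member of the miR-130/301 family, had 0, 0, 2, 0 and 0 counts in WT and 16, 58, 11, 4 and 27 counts in ABC, and was removed by edgeR's default filter. Its ratio on the unscaled share was 64.6, with an exact conditional 95% interval of 17.5 to 540.0, which covers the whole interval of mir-190a. It was tested in 10 of the alternatives, and ranked above mir-190a by fitted L2FC in 6 of these. The gene mir-190a ranked first in the other 4 and in the 9 ranked alternatives in which mir130c-2 was not tested. With every detected pre-miRNA tested, 4 more low-count rows came next after these 2. They were MIR153-2 (0 counts in WT, 17 in ABC), mir34b (2 and 74), MIR34C (7 and 163) and mir2191 (14 and 178). Of these, mir34b and MIR34C belong to the miR-34 family, known in mammals as transcribed under p53. Most counts of mir34b, MIR34C and mir2191 came from 1 fish each, with at most 51, 112 and 118 counts in that fish, whereas no ABC fish held most of the counts of mir-190a.

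Within ABC, replicate 6 had a normalized count of mir-190a that was 0.265 times the mean of the other 4 ABC fish. Among the 34 pre-miRNAs called up, none had a lower ratio, and among all 144 tested, 4 did. The median of this ratio was 0.801 over the 33 other pre-miRNAs called up and 0.922 over all 144. Replicate 6 was the lowest of the 5 ABC fish in 12 of the 34 called up and the highest in 2, while over all 144 it was the lowest in 29 and the highest in 24. Its total count was 1511306, the median of ABC, and its TMM factor of 1.28 lay between those of the other ABC fish. The coefficient of variation of mir-190a over the ABC fish was 40.0%, against a median of 35.4% over all 144, and 57 pre-miRNAs varied more. Without replicate 6 the L2FC was 4.94 with a standard error of 0.25.

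The 5 pre-miRNAs closest to mir-190a in pattern were taken by the root mean square difference over the 10 fish in log2 normalized count, with 2 added as prior count and each row centred on its own WT mean. They were mir-15b (difference 1.08), mir-222 (1.17), MIR19A at ENSDARG00000081883 (1.17), mir194b (1.36) and mir-221 (1.37). In mammals, miR-15b is known to restrain cyclins and BCL2, and miR-221 and miR-222 to restrain the cell cycle inhibitor p27, while miR-19a belongs to the miR-17-92 cluster and miR-194 is abundant in liver and gut epithelium. All 5 were called up, which this measure favors, and each differed from mir-190a by more than 1 log2 unit, so none had a rise of like size.

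The values of the closest rows show the difference in size and in scatter. The normalized count of mir-15b was 60.8, 50.8, 52.6, 55.8 and 38.3 CPM in WT and 254, 326, 292, 474 and 391 CPM in ABC. Its groups did not overlap, and ABC replicate 6 was the lowest ABC fish here too, by a narrow margin. That of MIR19A was 25.9, 22.4, 21.9, 22.0 and 34.6 CPM in WT and 116, 190, 135, 161 and 184 CPM in ABC, again with replicate 6 lowest. That of mir-222 lay between 2866 and 3431 CPM in WT and between 16690 and 22527 CPM in ABC. Of mir-221, the other member of that cluster, it lay between 89.3 and 113 CPM in WT and between 376 and 763 CPM in ABC. For both, ABC replicate 6 was inside the range of the other ABC fish. The row mir194b varied most, with 181 to 1051 CPM in WT and 1274 to 4686 CPM in ABC.

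**Figure D3:**
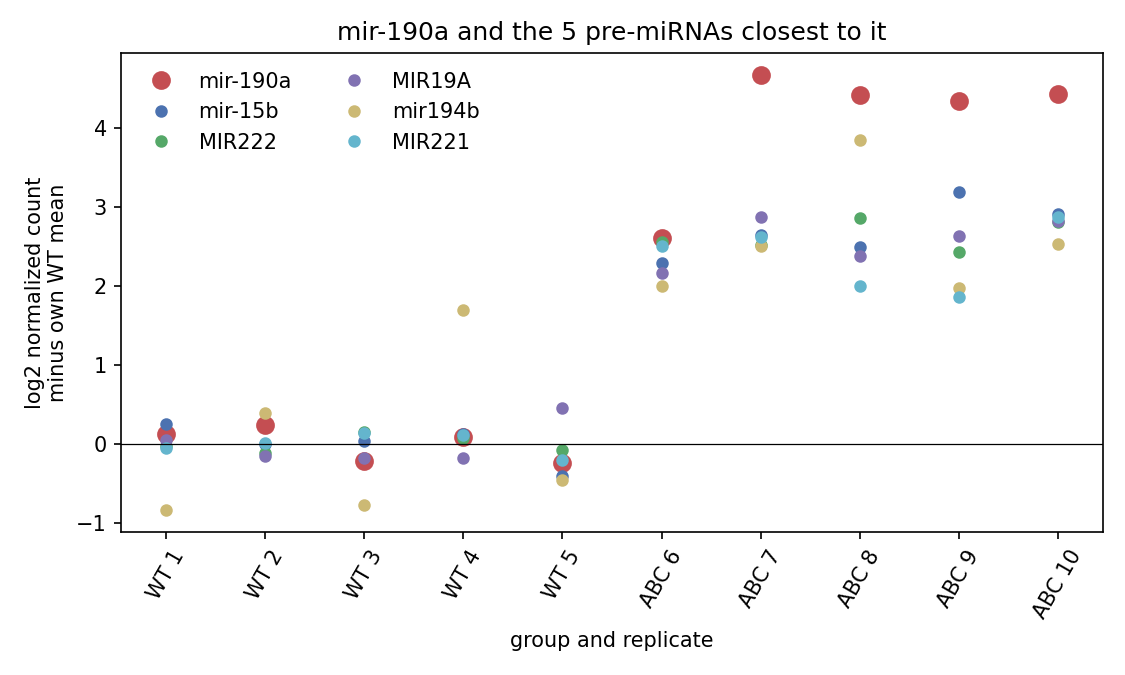
Log2 normalized count of mir-190a and of the 5 pre-miRNAs closest to it in each fish, minus the mean of each row over the WT fish (vertical axis), by group and replicate (horizontal axis). With the prior count of 2, mir-190a lies close to the 5 others in ABC replicate 6, at 2.61 log2 units. In the other 4 ABC fish it lies above all of them, at 4.34 to 4.67. The prior count lowers mir-190a most, since its WT counts are few, so part of this closeness comes from it. Without a prior count, the log2 of mir-190a over its WT mean was 3.07 in replicate 6 and 4.86 to 5.19 in the other 4.

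The paralog mir190b (ENSDARG00000083122) is listed at 0 in all 10 fish. In all, 64 of the 272 pre-miRNA rows (23.5%) are listed at 0 in every fish, among them MIR451A and MIR144, which are abundant in red blood cells, and mir126a, although MIR126 (ENSDARG00000098981) had between 1513 and 4220 counts per fish. A listing at 0 therefore cannot be read as absence, and no comparison of mir190b between ABC and WT could be made. How reads that fit several loci or overlapping genes were counted is not given in the sources used here, so reads of miR-190b could in principle have been placed elsewhere or dropped.

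In the RefSeq annotation of GRCz12tu, a later assembly than the GRCz10 that the authors used, dre-mir-190a lies within the span of tln2b, a zebrafish talin 2 gene, and also within that of etfa, which encodes a subunit of the mitochondrial electron transfer flavoprotein. The table has no row named tln2b. The row ETFA had 0, 1, 0, 3 and 2 counts in WT and 2, 5, 2, 1 and 5 counts in ABC, and its groups overlapped. The row TLN2 had 0, 0, 2, 1 and 1 counts in WT and 0, 0, 0, 0 and 2 in ABC. TLN1, the talin of most cell types, had 0, 1, 1, 2 and 7 counts in WT and 0, 4, 2, 3 and 2 in ABC. None of these rows passed the count filter. Fragments of the talin and etfa transcripts in these small RNA libraries were thus too few to compare ABC with WT.

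Transcripts reported as targets of miR-190 were also near the limit of detection, and fragments counted in small RNA libraries may not track the abundance of intact transcripts. Of the 8 names listed, 7 had a row, 2 of these (phlpp2 and NEUROD1) were listed at 0 in every fish, and none passed the count filter. PHLPP1 had 0, 0, 0, 0 and 6 counts in WT and 1, 3, 1, 1 and 1 in ABC. IGF1 had 3 counts over the WT fish and 2 over the ABC fish, and SMAD2, a transducer of TGF-β signals, had 3 and 4. TP53INP1, a p53-induced regulator of autophagy and cell death, was the one most often counted, with 5, 4, 5, 5 and 14 counts in WT and 5, 9, 11, 6 and 13 in ABC. Relative to the scaled pre-miRNA total, its normalized counts overlapped between groups, at 2.56 to 12.8 CPM in WT and 2.13 to 9.20 CPM in ABC. A difference in these targets was not detectable at this depth.

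Fragments of transcripts that β-catenin is known to induce were rare as well. Of the 17 names listed, 7 had a row, and none of these passed the count filter. Summed over the list there were 9 counts in WT and 47 in ABC. This was 0.651 to 1.62 CPM of all scaled counts in WT and 0.660 to 6.89 CPM in ABC, so the groups overlapped. The lowest ABC value was that of replicate 8, which had 1 count of CCND1 and 0 of every other row on the list. ABC replicate 6, the ABC fish with the least mir-190a, was at 3.31 CPM. AXIN2, a feedback inhibitor of the pathway, had 1, 2, 1, 0 and 1 counts in WT and 2, 7, 0, 3 and 1 in ABC. CCND1, which encodes cyclin D1, had 0, 0, 0, 1 and 1 counts in WT and 2, 4, 1, 4 and 10 in ABC.

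Markers of the liver and of other cell types moved beside mir-190a, and their part in its difference was not tested. Fragments of the hepatocyte transcripts, too, may not track the abundance of intact transcripts. The hepatocyte marker fabp10a, whose promoter drives the transgene, was counted in every fish, with 38 to 261 counts in WT and 31 to 198 in ABC. It was not called (L2FC -0.61, adjusted p = 0.535 in edgeR's quasi-likelihood fit over all features). Of 9 hepatocyte transcripts tested over all features, 5 fell and none rose, with a median L2FC of -1.91, where 29.5% of the 481 features tested were called in either direction and 12.1% were called down. Their summed level, relative to all scaled counts, was 571 to 3553 CPM in WT, highest in replicate 5, and 159 to 840 CPM in ABC, with ABC replicate 6 at 366 CPM. Without WT replicate 5, an alternative added after seeing the data, 4 of 9 fell and the median L2FC was -1.35. The share of all features called down in that fit was not summarised, so nothing is read from the 4 of 9.

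Of the epithelial microRNAs of the miR-200 family, 3 of 5 tested rose and none fell, where 23.6% of all 144 were called up, with a median L2FC of 1.03 against -0.11 over all 144. The other 2 were not called, mir141 at an L2FC of 0.04 and MIR200B (ENSDARG00000080713) at -1.22. Their summed level was 6363 to 17124 CPM in WT and 16385 to 29222 CPM in ABC, with ABC replicate 6 the lowest of the ABC fish. All 3 exocrine pancreas microRNAs (mir-216a, mir-216b and mir-217) fell, where 19.4% of all 144 were called down, with a median L2FC of -5.01 and summed levels of 369 to 4797 CPM in WT and 24.2 to 103 CPM in ABC. The 1 muscle microRNA tested, mir1-2, also fell (L2FC -2.95, Benjamini-Hochberg adjusted p = 0.00528 in edgeR's quasi-likelihood fit). Of 7 neuronal microRNAs tested, mir218b alone was called, and it rose (L2FC 0.97, adjusted p = 0.0405 in that edgeR fit), with a median L2FC of 0.01 over the list. This is 1 of 7, where 43.1% of all 144 were called, so nothing is read from it about the list. MIR9-1 and MIR9-2 were at 0 in every fish, but mir9-7 had 166 counts in WT and 182 in ABC, and mir128-1 had 17227 and 18377. The 5 other rows named for mir-124 held 1 count in all, in ABC replicate 10. Of 4 leukocyte microRNAs tested, mir150 fell and none rose, where 19.4% of all 144 were called down, and the median L2FC of the list was 0.24. MIR223 (L2FC 0.82), mir155 (0.76) and MIR142 (-0.29, ENSDARG00000082167) were not called. The summed level of the list was 3782 to 5707 CPM in WT and 1926 to 2905 CPM in ABC, and mir150 held 27929 of its 33163 counts in WT. Of the 6 endocrine pancreas rows, MIR7-1 alone was tested. It rose (L2FC 0.84, adjusted p = 0.0180 in that edgeR fit), where 23.6% of all 144 were called up. Among the untested rows, mir7a-3 had 20 counts in WT and 64 in ABC, dre-mir-375-1 had 22 and 9, and dre-mir-375-2 had 9 and 28. Nothing is therefore read about that list. The endothelial row MIR126 was not called (L2FC -0.31, adjusted p = 0.147 in that edgeR fit). Its level was 1155 to 1335 CPM in ABC and 1350 to 1901 CPM in WT, so the groups lay next to each other without overlap. Lack of overlap in the other direction, with every ABC fish above every WT fish, was found in 18.1% of all 144. The share with every ABC fish below every WT fish was not summarised, so nothing is read from the lack of overlap about MIR126.

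The L2FC of mir-190a was above 0 in all 20 alternatives run. This sign is built into the choice of the gene for its rise in the same fish. It lay between 4.23 and 5.48 in the 10 that kept every fish, and between 4.58 and 4.94 in the 10 that dropped a single fish. The highest value, 5.48, was obtained without TMM, from total pre-miRNA counts only, a setting that also raised the median over all 144 by 0.78. Relative to that median shift the L2FC of mir-190a was 4.70.

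**Figure D4:**
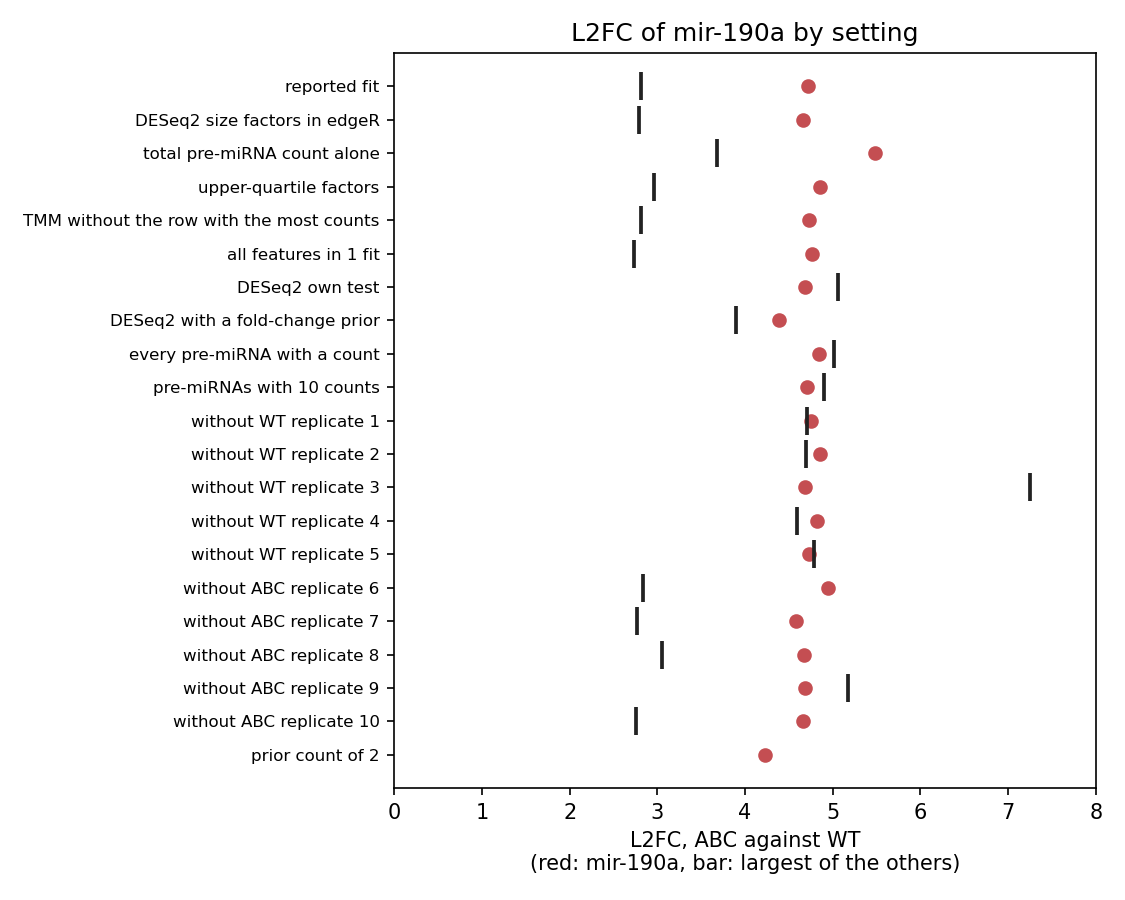
L2FC of mir-190a (red points, horizontal axis) in the reported fit and in the 20 alternatives (vertical axis), with the largest L2FC of the other pre-miRNAs tested in the same fit as a bar where the setting gave one. All red points lie between 4.23 and 5.48, and the bar lies to the right of the point in 6 settings, each for mir130c-2, farthest (7.24) without WT replicate 3, where that row has 0 WT counts and its fitted value is no bound.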

How the data were processed

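Small RNA libraries, 1 per fish, were made by the authors with a NEBNext kit and sequenced as single-end reads of 50 bases. Reads were mapped by the authors to GRCz10 with miRBase annotation, and raw read counts per Ensembl gene were deposited. The submitters' processing notes name Novoalign and featureCounts. Strand setting, trimming and the treatment of reads with several matches are not given in the sources used here.

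Groups came from the genotype labels. Whether the fish came from separate clutches is not given, so p-values weigh group differences against the spread between these fish only. No pair of fish of a group agreed within sampling noise. A table of Ensembl symbols gave names to 26433 rows, 272 of them pre-miRNAs. Pre-miRNA counts were analysed in R 4.3.3 with edgeR 4.0.16 (filterByExpr, TMM, glmQLFit and glmQLFTest, no covariate) and Benjamini-Hochberg adjustment over 144 pre-miRNAs. DESeq2 1.42.0, the tool of the study, was an alternative. A standard error is the L2FC over the square root of F. Transcripts were tested in 1 fit over 481 features. The fit was also run on simulated counts, where it called no unchanged row but missed some of the planted changes, so a row not called may still differ.

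The gene and the lists were chosen with earlier results of these data known. Named are mir-190a, mir190b, talins, the 3 next L2FC, the 5 closest patterns, the row with the most counts and list members. Low-count rows above or just below mir-190a without the filter, the rows overlapping in ratio, and ETFA were named after their values were seen. Alternatives changed the scaling, test, count filter, prior count and call thresholds, or left out each fish.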

Additional observations from a re-analysis of the deposited data

Results flagged for a closer look

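Within each group of 5 fish, the farthest fish was compared with the other 4 by Dixon's ratio for 13 measures, of mir-190a, the libraries and the rows named beside it. In 5 of the 26 groups 1 fish lay apart, and chance flags about 1 in 20. The measures share counts and are not independent.

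ABC replicate 6 lay apart in mir-190a after TMM scaling, at 20.02 CPM against 69.1 to 87.0 CPM in the other ABC fish. The same fish did not pass the ratio on the unscaled share, where it was at 25.6 CPM against 75.5 to 121 CPM.

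WT replicate 5 lay apart in the share of counts on pre-miRNAs, 94.7% against 96.9% to 97.5%. It also lay apart in the row listed as mir124-1, at 1125270 CPM against 827897 to 887506 CPM. Its mir-190a, 1.82 CPM, was the lowest of the WT fish, and the L2FC without it was 4.73.

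The row mir194b had a fish apart in each group, WT replicate 4 at 1051 CPM against 181 to 425 CPM, and ABC replicate 8 at 4686 CPM against 1274 to 1879 CPM.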

How the results depend on the processing

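The L2FC of mir-190a moved by more than 0.53 log2 units in 1 of 20 alternatives, total pre-miRNA count alone (5.48). That limit is the mean of the SD of log2 normalized count in WT (0.22) and in ABC (0.84). The WT value rests on 17 counts with 2 added as prior count, and the ABC value alone is larger than the move. With each fish left out it lay between 4.58 and 4.94. The number of called pre-miRNAs stayed within 1.5 times 62 in every alternative, between 47 and 75 with every fish kept and between 54 and 65 with each left out. With total count alone the split was 65 up and 10 down, against 34 up and 28 down. For mir190b no alternative gives a value, since its row holds 0 counts. No paired analysis was possible because ABC and WT share no replicate numbers. Depth limits the WT level of mir-190a, which rests on 17 counts, and every transcript compared with it.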
